A study of Mus musculus with 4 samples.

Results

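Mature oligodendrocytes without transcripts of the immediate early gene Fos made up 210 of the 768 sequenced wells, and 210 of the 716 wells that were kept because they held 500 to 6000 detected genes. A cell was placed among mature oligodendrocytes when it had at least 10 read counts of at least 3 of the myelin genes Mog, Mag, Opalin, Ermn, Mal and Ugt8a, and more such hits than for any of the panels of astrocyte, endothelial, mural and neuroblast genes. It was chosen by its Fos counts, as without Fos, when it held fewer than 10 Fos counts. The panel gave 298 oligodendrocytes, of which the other 88 had Fos, and it gave 196 astrocyte, 86 endothelial, 85 mural and 30 neuroblast cells, with 21 wells in no class. All wells came from green cells sorted from the dentate gyrus, both hemispheres together, of 8 male nestin-GFP mice, a reporter line in which the promoter of the filament gene nestin drives green fluorescent protein. At 2 months of age 4 mice received 2 µl of a miR-132 antagomir at 0.33 nmol/ml into the cerebral ventricle, a cholesterol-modified oligonucleotide with locked nucleic acids, in artificial cerebrospinal fluid. The 4 control mice, of the same genotype and sex, received a scrambled locked nucleic acid oligonucleotide in the same fluid (the sources used here state no dose for it). The antagomir mice were analysed at 3 months of age, the sources used here state no separate ages for the controls, and 96 wells were sorted and sequenced by Smart-seq2 for each of the 8 mice.

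Oligodendrocytes wrap axons in myelin, a stack of membrane rich in cholesterol, galactolipids and a few abundant proteins. Mature cells of the mouse brain fall into several states that differ in a modest number of genes, among them one marked by Klk6 and one marked by Ptgds and Il33. Fos encodes a subunit of the AP-1 transcription factor and belongs to the immediate early genes, which are transcribed within minutes of a stimulus, of handling and of tissue dissociation alike. The antagomir is meant to block miR-132, a microRNA that neuronal activity induces. Its mature form is shown here with that of miR-212, made from the same primary transcript, because both share the seed, bases 2 to 8, through which a microRNA finds its targets. Capitals mark the seed. The sequences are those of RefSeq on GRCm38.p6, where they lie on the plus strand at chr11:75173723-75173744 and chr11:75173443-75173464.
mmu-miR-132-3p: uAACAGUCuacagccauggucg
mmu-miR-212-3p: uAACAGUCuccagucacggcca
The 2 sequences hold the same seed, AACAGUC. The library was primed on polyadenylated RNA, so neither mature microRNA was measured and the block itself is not known from these data.

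The mouse was the replicate throughout. Mice 1, 3, 5 and 7 were scrambled and mice 2, 4, 6 and 8 antagomir. Mice 1, 2, 5 and 6 had the label L5 and the other 4 the label L6, so that either label contained 2 mice of each treatment. The deposited well table heads this label Project, which does not say what kind of batch it was. It is called the pool here. The date of cDNA synthesis that is also given for each well was not used. Sorting took place on 2 days, with mice 1 to 4 first. The cells without Fos had 842121.5 counts and 2983.5 detected genes as medians (genes ranged from 1131 to 5514), and their summed counts per mouse ran from 12372478 to 39081079. No well name was shared between mice. The 2 pools stood apart in every cell class: mitochondrial genes took 1.06% to 1.301% of the counts of oligodendrocytes without Fos in the 4 L5 mice and 3.38% to 3.95% in the 4 L6 mice.

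The split on Fos left an empty interval. Of the 210 cells, 199 had no Fos count and 11 had 1 or 2, whereas the 88 oligodendrocytes with Fos had from 37 to 12399 counts with a median of 1885. The cells just inside the limit thus held 2 counts and those just outside it 37. The cells with Fos had a median of 831314 counts and 2989.5 detected genes. In the 6 mice with at least 5 cells of both kinds, median counts were lower in the cells without Fos in 5 mice (733616 against 802818 on average, exact two-sided sign-flip p = 0.0938, with 0.0313 the smallest possible). Median detected genes differed by 5.25 in the same mice (exact p = 0.938).

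**Figure D1:**
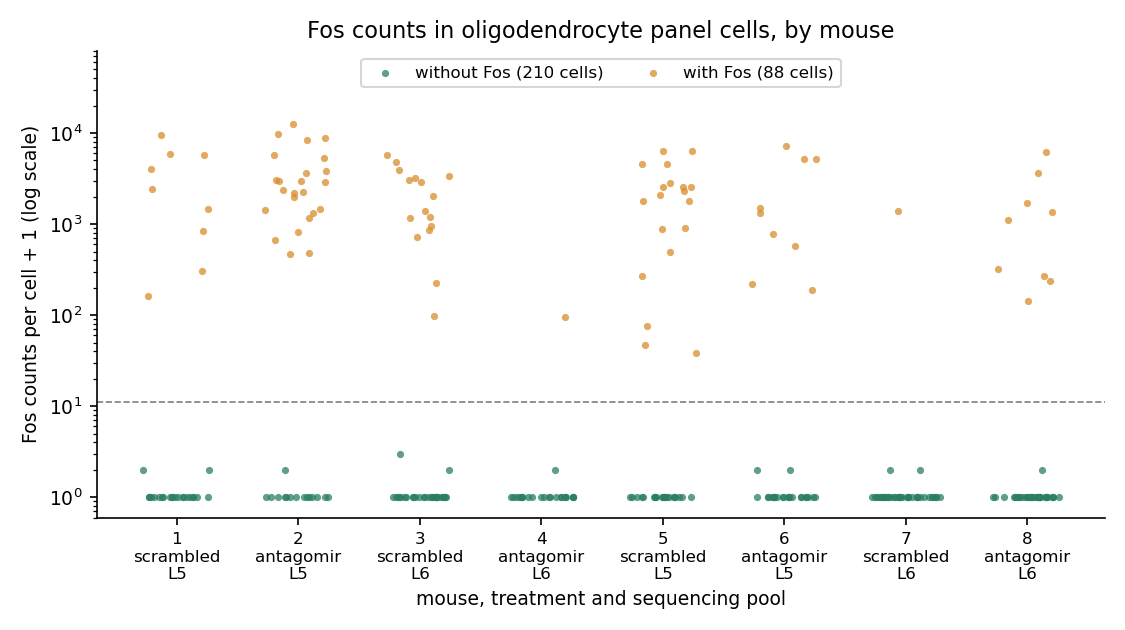
Fos read counts plus 1 on a log axis, 1 point per oligodendrocyte panel cell, by mouse with its treatment and pool. The dashed line is the limit of 10 counts. Cells without Fos (green) held 0 to 2 counts and cells with Fos (orange) at least 37, and mice 4 and 7 had 1 cell with Fos each.

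The share of oligodendrocytes without Fos differed widely between mice. It was 38.5%, 95.8%, 71.9% and 79.5% in antagomir mice 2, 4, 6 and 8 and 71.0%, 64.4%, 53.7% and 97.6% in scrambled mice 1, 3, 5 and 7. The lowest and the highest mouse belonged to different treatments and the groups overlapped fully. Means were 71.4% ± 24.1 (SD, n = 4) after the antagomir and 71.7% ± 18.7 (SD, n = 4) after the scrambled oligonucleotide, a difference that was not detectable (exact two-sided permutation p = 0.971, smallest possible 0.0286). The difference of -0.24 percentage points became -7.14 within pool L5 and 6.66 within pool L6, where 2 mice against 2 cannot give p under 0.333, and it ran from -8.38 without mouse 4 to 10.7 without mouse 2, with 8.41 without mouse 7. By pool the share was 84.4% ± 15.6 in L6 and 58.7% ± 15.9 in L5 (SD, n = 4 each, exact permutation p = 0.0857).

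Oligodendrocytes without Fos numbered 15, 23, 23 and 35 in antagomir mice 2, 4, 6 and 8 and 22, 29, 22 and 41 in scrambled mice 1, 3, 5 and 7. They were 27.4% ± 10.4 of the kept wells after the antagomir and 31.6% ± 10.9 after the scrambled oligonucleotide (SD, n = 4 each, difference -4.19 percentage points, exact permutation p = 0.600). Without mouse 7 the difference was 0.98 percentage points, in the other direction. By pool the means were 36.5% ± 9.73 in L6 and 22.6% ± 4.05 in L5 (exact permutation p = 0.0571), while all oligodendrocytes together were 44.1% and 39.4% of the kept wells (exact permutation p = 0.543).

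The myelin panel, which chose the cells, was close to complete in them: 200 cells had all 6 genes, 7 had 5, 2 had 4 and 1 had 3. Mal, a myelin proteolipid, averaged 6585 ± 1460.2 CPM (a gene's share of the summed counts of a mouse's cells, scaled to 1000000; SD over 8 mice), Mag, the myelin-associated glycoprotein, 4609 ± 1326, and Mog, the glycoprotein of the outer myelin surface, 2796 ± 320.5. Opalin stood at 1896 ± 435 CPM, Ermn, a cytoskeletal protein of myelin, at 1676 ± 274, and Ugt8a, the enzyme that makes galactocerebroside, at 878 ± 96.9. These levels describe the choice of cells.

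Levels were compared between genes only per kilobase of annotated exon (GENCODE M21, GRCm38). Ptgds, the prostaglandin D2 synthase, led with 17654 ± 4493 CPM per kilobase (SD, n = 8). The beta tubulin Tubb4a followed among nuclear genes at 7338 ± 1054. Fth1, the ferritin heavy chain, stood at 4651 ± 801 CPM per kilobase, Cnp at 3398 ± 484, the small heat shock protein Cryab at 3252 ± 786 and Cldn11, the tight junction protein of myelin, at 3204 ± 376. Cnp, Cryab and Cldn11 did not differ beyond the spread between mice. Actb, mt-Rnr2 and mt-Cytb were also among the 10 genes with the highest level.

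Outside the panel, the genes of myelin were held by most cells. All 14 listed myelin protein genes had at least 10 counts in over 50% of the cells, and their summed level lay between 85704 and 92699 CPM in scrambled mice and between 81827 and 95161 CPM in antagomir mice. Mbp, the myelin basic protein, was present in 100.0% of cells. It stood at 16788, 17866, 14424 and 14642 CPM in antagomir mice 2, 4, 6 and 8 and 17099, 15097, 15701 and 14274 CPM in scrambled mice 1, 3, 5 and 7, a narrow band that held both groups. Of 11 myelin lipid enzymes 8 were present in over 50% of cells, among them the desaturase Scd2 at 2969 ± 843 CPM, the ceramide synthase Cers2 at 1375 ± 287 and the fatty acid hydroxylase Fa2h at 1094 ± 208. Of 11 oligodendrocyte transcription factors 9 were, among them Olig1 at 2137 ± 489 CPM, with Sox10 in 92.4% and Myrf, which drives myelin genes, in 82.4% of cells.

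Genes of the cytoskeleton were widely held: 13 of 15 were present in over 50% of cells, with the septin Sept4 at 6173 ± 924 CPM and the microtubule protein tau, Mapt, at 1331 ± 139. For axon contact 8 of 10 were, among them Cntn2 at 1299 ± 527 and Cd82 at 821 ± 103 CPM. Cholesterol synthesis was sparser, with 2 of 18 genes in over 50% of cells. Sc5d stood at 194 ± 40.0 CPM and Hmgcs1, the HMG-CoA synthase, at 124 ± 58.6. Fth1 and Ftl1, the ferritin chains, were in 100.0% and 98.6% of cells, and Trf, transferrin, in 99.05%. The iron exporter Slc40a1 had at least 10 counts in 0 of 210 cells, which allows a share of up to 1.43%. That limit takes cells as independent and leaves out the spread between mice.

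The cells held genes of the state marked by Ptgds and Il33 almost without exception. Ptgds was in 98.6%, the cytokine Il33 in 97.1%, the apolipoprotein Apod in 99.5%, the carbonic anhydrase Car2 in 99.5% and Qdpr, which recycles tetrahydrobiopterin, in 100.0% of cells. All 5 together were present in 201 of 210 cells, and 0 cells lacked both Ptgds and Il33. Il33 stood at 982, 1508, 1313 and 1678 CPM in antagomir mice 2, 4, 6 and 8 and 1107, 1496, 1549 and 1564 CPM in scrambled mice 1, 3, 5 and 7, and Ptgds ranged from 20011 to 43622 CPM over the 8 mice with a median of 29277. Mouse 2 was lowest for Il33 and mouse 4 for Ptgds, and the treatments overlapped in both genes. Grm3 was in 83.8% of cells and Jph4 in 28.6%.

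At least 1 of 5 genes of the state marked by the protease Klk6 was found in 83 of the 210 cells, and at least 3 in 8. Klk6 had at least 10 counts in 15 cells from 7 mice (highest count 369), and 13 of these 15 also held Ptgds. Anxa5 was in 38 cells, S100b in 33, Mgst3 in 33 and Hopx in 2. Enpp6, a phosphodiesterase of newly formed oligodendrocytes, was in 33 cells from all 8 mice, 31 of which had all 6 panel genes. Bcas1 was in 186 cells and Tcf7l2 in 40.0%, while Neu4 and Bmp4, also genes of the newly formed stage, were in 0.476% and 0.952%. The precursor genes Pdgfra and C1ql1 were in 0 of 210 cells. Gpr17 was in 4 cells, and mouse 3 held 153 CPM of it against at most 9.24 in the other mice.

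Neuroblast, mural and blood markers were absent or rare, whereas at least 1 astrocyte marker was found in 103 of the 210 cells. All 6 neuroblast markers had at least 10 counts in 0 of 210 cells, as did 8 of 9 endothelial, 4 of 6 mural, 4 of 7 neuronal and 3 of 4 blood markers. The exception among endothelial genes, the VEGF receptor Kdr, was in 21 of 210 cells. The neuroblast and mural markers, and 6 each of the endothelial and astrocyte markers, were panel genes. A cell needed fewer hits of these than of the myelin panel, so their scarcity partly describes the choice of cells. Of 9 microglial markers Cx3cr1, P2ry12 and Tmem119 were in 0 cells, 49 cells had at least 1 of the 9 and 1 cell had at least 3. At least 3 of 9 astrocyte markers were present in 14 cells, with Slc1a3 in 23.8%, Slc1a2 in 18.1% and Aldoc in 16.7%, while Aqp4 was in 1.43% and Gja1 in 2.86%. The summed astrocyte markers lay between 71.6 and 276.9 CPM in antagomir mice and between 133.9 and 235.2 CPM in scrambled mice. Whether such cells held a second cell was not tested, since no doublet caller was run.

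**Figure D2:**
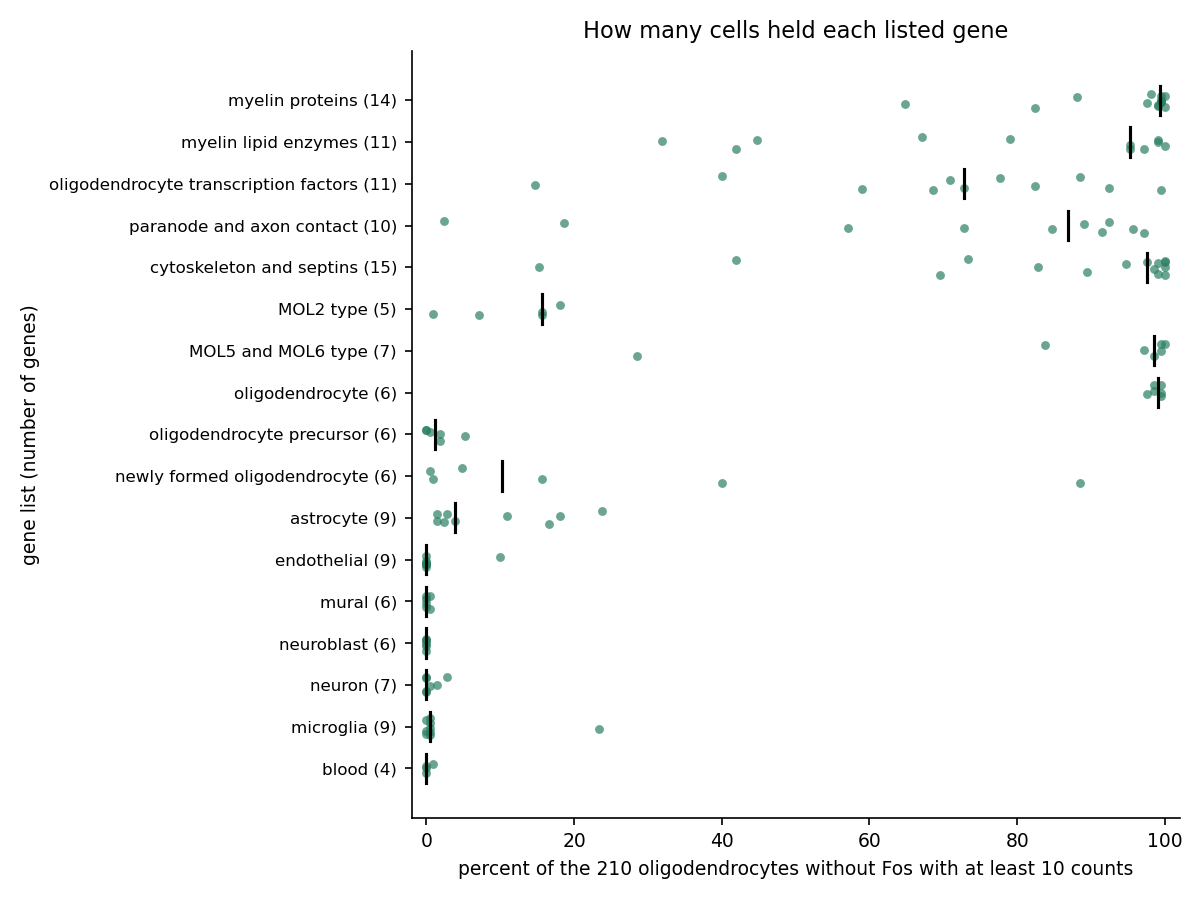
Percent of the 210 oligodendrocytes without Fos that had at least 10 counts of a gene (x axis), 1 point per gene, by list (y axis, with the number of genes); black bars are list medians. All 14 myelin protein genes lie above 50%, as do 6 of 7 genes of the Ptgds and Il33 state (MOL5 and MOL6 type), and all 6 neuroblast markers lie at 0. The oligodendrocyte, mural and neuroblast markers, and part of the astrocyte and endothelial ones, were panel genes that chose the cells.

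Nes, the gene whose promoter drives the reporter, had at least 10 counts in 127 of the 210 cells (60.5%). Its level was 31.4, 45.0, 28.5 and 31.7 CPM in antagomir mice 2, 4, 6 and 8 and 21.5, 19.8, 37.4 and 39.4 CPM in scrambled mice 1, 3, 5 and 7. The mean was 31.9 ± 8.67 CPM (SD, n = 8 mice), and it was 32.0 ± 12.3 in oligodendrocytes with Fos. The latter mean includes mice 4 and 7, which had 1 such cell each, at 34.5 and 61.3 CPM. In the other mice the cells with Fos lay between 24.0 and 29.9 CPM. Endothelial cells had 259 ± 124 and mural cells 274 ± 64.6 CPM, so the oligodendrocytes held less Nes in every mouse than any mouse's mural cells, which began at 195 CPM. Astrocyte cells had 56.3 ± 28.9 and neuroblast cells 42.1 ± 33.0 CPM, both overlapping the oligodendrocytes. These differences were not tested. The transcript of the fluorescent protein itself was not analysed here.

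The lack of Fos did not extend to all immediate early genes. Arc, which encodes a cytoskeletal protein induced by synaptic activity and lies at chromosome 15, 74669083 to 74672570 of GRCm38, had at least 10 counts in 122 of the 210 cells (58.1%) and in 64.8% of the oligodendrocytes with Fos. In the other classes it was in 1.02% of 196 astrocyte, 1.16% of 86 endothelial, 0 of 85 mural and 0 of 30 neuroblast cells. A count of 0 allows up to 3.53% of mural and 10% of neuroblast cells. Both limits take cells as independent and leave out the spread between mice. Median depth was 842121.5 counts in the cells described and 542607 to 575957 in those other classes. Arc was present in every mouse, in 40.9% of the cells of mouse 5 up to 78.3% of those of mouse 6. The nuclear receptor Nr4a1 was in 58.1% and 63.6% of the cells without and with Fos. Nr4a1 was in 37.2% of endothelial, 22.4% of mural and 8.16% of astrocyte cells. No test was run on these shares.

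Most other immediate early genes were scarce where Fos was absent. Because they are induced together with Fos, which chose the cells, the values are a description. Egr1, a zinc finger transcription factor, was in 2.38% of cells without and 78.4% of cells with Fos. It stood at 0.110, 20.9, 0.455, 0, 0.0808 and 0 CPM in the cells without Fos of mice 1, 2, 3, 5, 6 and 8 and 1169, 1050.3, 1203, 504.3, 1504 and 893 CPM in the cells with Fos of the same mice. Mouse 2 was the exception among cells without Fos, and the kinds of cell did not overlap. Fosb and Junb, further AP-1 subunits, were in 2.38% and 2.86% of cells without Fos against 67.0% and 65.9% with it, and Ier2 in 1.90% against 34.1%. Egr1, Fosb, Junb and Ier2 taken singly or together were found in 17 of the 210 cells, and Egr2, Atf3, Klf4, Cyr61 and Socs3 in 0. Of all 19 listed immediate early genes, Arc, Nr4a1 and Jun included, at least 1 was found in 196 of the 210 cells and at least 3 in 84.

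Jun and Dusp1 took a middle place. Jun, a partner of Fos in AP-1, was in 40.5% of cells without Fos and 79.5% of those with it. Its level was 142, 274, 33.0, 75.6, 149 and 96.8 CPM in the cells without Fos of mice 1, 2, 3, 5, 6 and 8 and 1033, 1339, 473, 555, 921 and 544 CPM in the cells with Fos of the same mice. Dusp1, the phosphatase that switches off MAP kinases, was in 17.1% and 64.8%, at 41.5, 62.5, 40.9, 46.3, 71.1 and 22.1 CPM in the cells without Fos of mice 1, 2, 3, 5, 6 and 8 and 1039.7, 735, 315, 546, 508 and 229 CPM in the cells with Fos of the same mice. For both genes each mouse was lower in its cells without Fos and the kinds of cell did not overlap. Jun was -2.79 (SE 0.21) and Dusp1 -3.45 (SE 0.25) on the log2 scale. Arc stood at 315, 319, 162, 232, 482 and 159 CPM in the cells without Fos of mice 1, 2, 3, 5, 6 and 8 and 552, 434, 266, 382, 577 and 272 CPM in the cells with Fos of the same mice, lower without Fos in all 6 mice but with overlapping ranges, a log2 difference of -0.59 (SE 0.13). Nr4a1 was lower in 4 of 6 mice, with a log2 difference of -0.37 (SE 0.31).

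**Figure D3:**
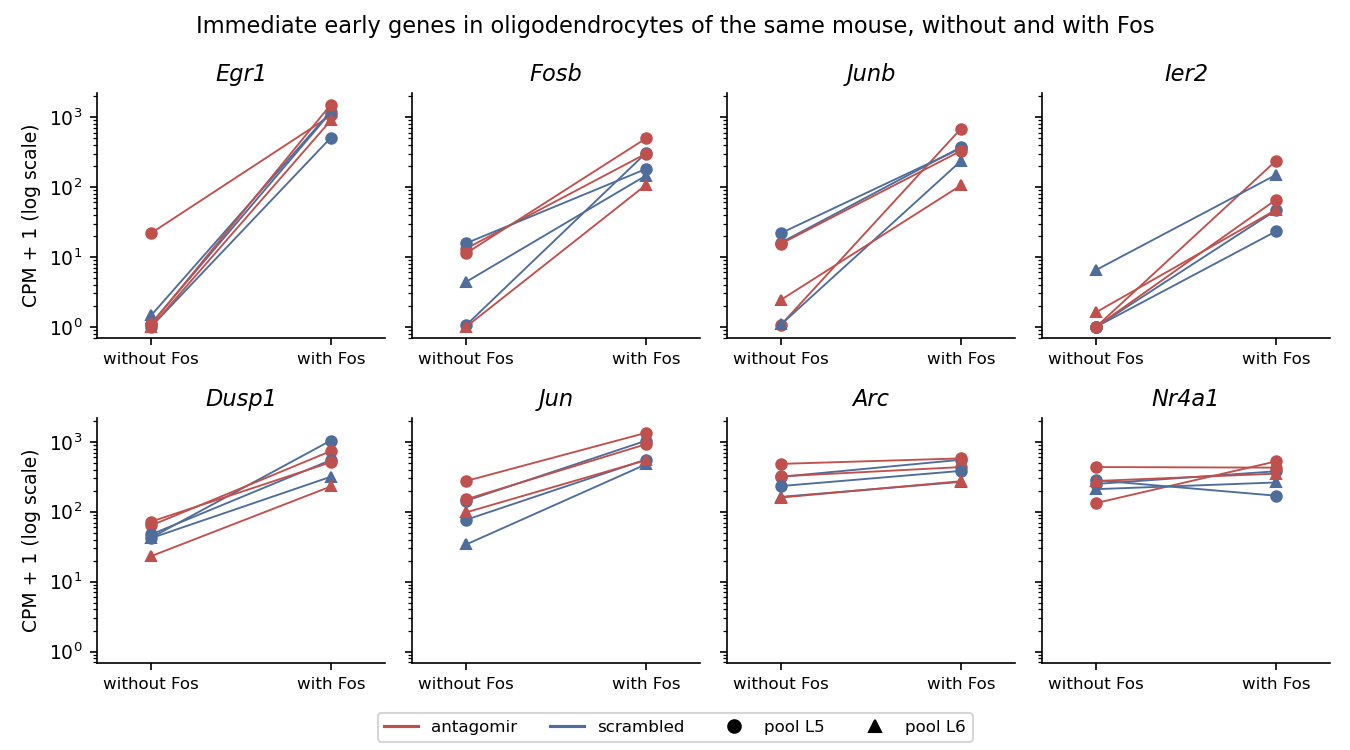
Level of 8 immediate early genes as CPM plus 1 on a log axis in oligodendrocytes without and with Fos, 1 line per mouse (6 mice), coloured by treatment with a symbol for the pool. Egr1, Fosb, Junb, Ier2, Dusp1 and Jun are lower without Fos in all 6 mice with no overlap, whereas the ranges of Arc and Nr4a1 overlap.

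The rest of the transcriptome was tested for a difference between oligodendrocytes without and with Fos of the same mice (edgeR quasi-likelihood test on counts summed per mouse, mouse as a block, Benjamini-Hochberg adjustment, Fos and the panel genes left out). Of 9156 genes 3 passed an adjusted p of 0.05 (0.0328%), all lower without Fos. They were Dusp1, Jun and Egr1, so no gene outside the immediate early genes passed. Of the 13 immediate early genes tested 12 had a negative and 1 a positive difference, with a median of -3.45 against 0.24 for all genes, a description since Fos chose the cells. At an unadjusted p under 0.05, 218 genes were higher (2.38%) and 68 lower (0.743%) without Fos, together 3.12%. DESeq2 called 462 genes, 384 higher and 78 lower, and limma on mean log2(CPM + 1) called 10, all lower, so the count rests on the tool. Within pool L5 1 gene passed, within pool L6 0, and with at least 10 cells per sum 0.

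No myelin gene passed this test. Of 14 myelin protein genes 5 were negative and 9 positive, with a median log2 difference of 0.08 against 0.24 for all genes tested. Of the 9 positive genes 3 had an unadjusted p under 0.05, where 2.38% of all genes tested were higher. Of 11 lipid enzymes, 11 transcription factors and 15 cytoskeletal genes 0 passed, with medians of 0.03, 0.04 and -0.07. Of the 7 genes of the Ptgds and Il33 state 0 passed, with a median of 0.06. The heat shock gene Dnajb1 was in 54.8% of cells without and 80.7% of cells with Fos, at 153 ± 38.9 against 475 ± 214 CPM (SD, n = 6). It was lower without Fos in all 6 mice with no overlap, but did not pass (edgeR adjusted p = 0.114). The share of all genes without overlap was not counted. Dnajb1 was picked from the heat shock list after its values were seen. Of the 7 heat shock genes tested 2 were positive and 5 negative, with a median of -0.05. In that list 0 passed and 1 was lower at an unadjusted p under 0.05.

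Antagomir and scrambled mice were then compared within the oligodendrocytes without Fos, to ask which genes respond to the treatment there. The edgeR quasi-likelihood test on counts summed per mouse (4 against 4 mice) called 0 of 10012 genes (0%), and the smallest adjusted p was 0.788. At an unadjusted p under 0.05, 70 genes were higher (0.699%) and 98 lower (0.979%) after the antagomir, together 1.68%. DESeq2 called 15 genes, 2 higher and 13 lower, and limma on mean log2(CPM + 1) called 0. Fits within either pool or either sort day, with 2 against 2 mice, called 0 each. The median SE of a log2 difference among genes over 20 CPM was 0.49. It limits the difference that 4 mice a group could show in the main edgeR fit, which held no term for the pool.

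Genes of myelin lay close together in the groups. The median log2 difference of the 14 myelin proteins was -0.03, with 5 positive and 9 negative, against -0.01 for all genes tested. Mbp differed by 0.01 (SE 0.16) and Ptgds by -0.06 (SE 0.25). Medians were -0.02 for 11 lipid enzymes, -0.07 for 11 transcription factors, 0.00 for 9 axon contact genes and -0.01 for 15 cytoskeletal genes, with 0 called in each. Cholesterol synthesis had 14 of 18 genes negative and a median of -0.17, with 0 called and 0 at an unadjusted p under 0.05. Its sign rested on mouse 7, without which the median was 0.31, and it was 0.49 within pool L5 and -0.69 within pool L6.

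Genes reported as targets of miR-132 were measured in these cells as well. Of 18 listed genes 15 were tested, 7 positive and 8 negative, with a median log2 difference of -0.03 and 0 called. That median ran from -0.25 without mouse 4 to 0.11 without mouse 1. Nacc2, a transcriptional corepressor, was at 133, 66.1, 182 and 91.4 CPM in antagomir mice 2, 4, 6 and 8 and 199.6, 164, 131.7 and 143 CPM in scrambled mice 1, 3, 5 and 7. The groups overlapped, and the log2 difference was -0.45 (SE 0.34; edgeR unadjusted p = 0.207). It ran from -0.74 without mouse 6 to -0.25 without mouse 4, with -0.29 without mouse 1. Means were 118 ± 50.8 and 159.7 ± 29.8 CPM (SD, n = 4 each). Mapt differed by 0.12 (SE 0.15), Zeb2 by -0.15 (SE 0.18) and Paip2, which represses translation, by -0.18 (SE 0.21).

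Genes of antigen presentation and of the Klk6 state were mostly higher in mean after the antagomir, without passing. Of 6 tested genes of MHC class I 5 were positive, with a median of 0.73 (0.24 without mouse 6) and 0 called. At an unadjusted p under 0.05, 2 of them were higher and 1 lower, against 0.699% and 0.979% of all genes tested. Of the 4 tested genes of the Klk6 state 3 were positive, with a median of 1.05 (0.60 without mouse 6) and 0 called. B2m, which encodes beta-2 microglobulin, stood at 375, 63.5, 120.3 and 163 CPM in antagomir mice 2, 4, 6 and 8 and 29.9, 128, 44.8 and 57.8 CPM in scrambled mice 1, 3, 5 and 7. Mouse 2 was the highest and the groups overlapped (log2 difference 1.5, SE 0.58; edgeR unadjusted p = 0.0259), and the difference was not significant after adjustment. It was 0.82 without mouse 2, 2.69 within pool L5 and 0.31 within pool L6. H2-D1, a heavy chain, was at 606, 40.3, 66.2 and 94.5 CPM in antagomir mice 2, 4, 6 and 8 and 53.7, 42.2, 3.62 and 51.4 CPM in scrambled mice 1, 3, 5 and 7, with mouse 2 again far above the rest (log2 difference 2.43, SE 0.97; unadjusted p = 0.0298). Klk6 stood at 24.5, 14.4, 51.7 and 30.5 CPM in antagomir mice 2, 4, 6 and 8 and 8.92, 8.73, 0 and 16.5 CPM in scrambled mice 1, 3, 5 and 7, in 11 cells of antagomir and 4 of scrambled mice, with overlapping groups (log2 difference 1.83, SE 1.25; unadjusted p = 0.174). The microglial markers summed to 21.7 to 75.3 CPM in antagomir and 24.1 to 71.9 CPM in scrambled mice, and their part in these values was not tested.

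The genes with the smallest unadjusted p are named as a description, since none passed adjustment and the small p chose them. Topors, a ubiquitin and SUMO ligase, was at 57.1, 56.0, 42.0 and 47.2 CPM in antagomir mice 2, 4, 6 and 8 and 7.99, 6.62, 17.5 and 11.4 CPM in scrambled mice 1, 3, 5 and 7 (log2 difference 2.19, SE 0.53; unadjusted p = 0.00199). The lowest antagomir mouse lay above the highest scrambled one, and at least 10 counts were found in 19 cells of antagomir and 9 of scrambled mice. Topors thus met the limit of 10 cells for naming a gene through the antagomir mice, the group in which it was high. Nothing is read from the gap between its groups. Lrpap1, a chaperone of lipoprotein receptors, was at 205, 200.02, 268 and 242 CPM in antagomir mice 2, 4, 6 and 8 and 131, 111, 109 and 162 CPM in scrambled mice 1, 3, 5 and 7 (log2 difference 0.82, SE 0.22). Akr7a5, Ndufa8, a subunit of respiratory complex I, and Pkm, the pyruvate kinase, differed by 0.76 (SE 0.23), 0.74 (SE 0.24) and 0.83 (SE 0.28). In all 5 genes the groups did not overlap, which choice by a small p favours. The share of all 10012 genes tested whose groups did not overlap was not counted.

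On the lower side, Blvrb, the biliverdin reductase B, had 0 counts in the cells of all 4 antagomir mice and 8.87, 23.5, 46.7 and 12.2 CPM in scrambled mice 1, 3, 5 and 7. At least 10 counts were found in 12 cells, all of scrambled mice. Negr1, a cell adhesion molecule, was in 10 cells, all of scrambled mice, at 0.147, 0.149, 0.0808 and 0.0685 CPM in antagomir mice 2, 4, 6 and 8 and 16.5, 4.59, 3.06 and 17.1 CPM in scrambled mice 1, 3, 5 and 7. Cep68, a centrosomal protein, was in 21 cells, 19 of them of scrambled mice, at 0, 1.49, 0 and 0.583 CPM in antagomir mice 2, 4, 6 and 8 and 2.70, 18.8, 99.7 and 34.7 CPM in scrambled mice 1, 3, 5 and 7. Tbc1d5, which acts on Rab GTPases, was more widely held, in 45.7% of cells, at 79.5, 79.3, 59.2 and 36.3 CPM in antagomir mice 2, 4, 6 and 8 and 149, 118, 221 and 118 CPM in scrambled mice 1, 3, 5 and 7 (log2 difference -1.28, SE 0.35). Zfp612 was at 10.7, 10.5, 4.93 and 8.02 CPM in antagomir mice 2, 4, 6 and 8 and 68.3, 19.8, 65.7 and 29.1 CPM in scrambled mice 1, 3, 5 and 7. Blvrb, Negr1, Cep68 and Zfp612 met the limit of 10 cells for naming a gene through the scrambled mice, the group in which they were high, so nothing is read from the gap between their groups.

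**Figure D4:**
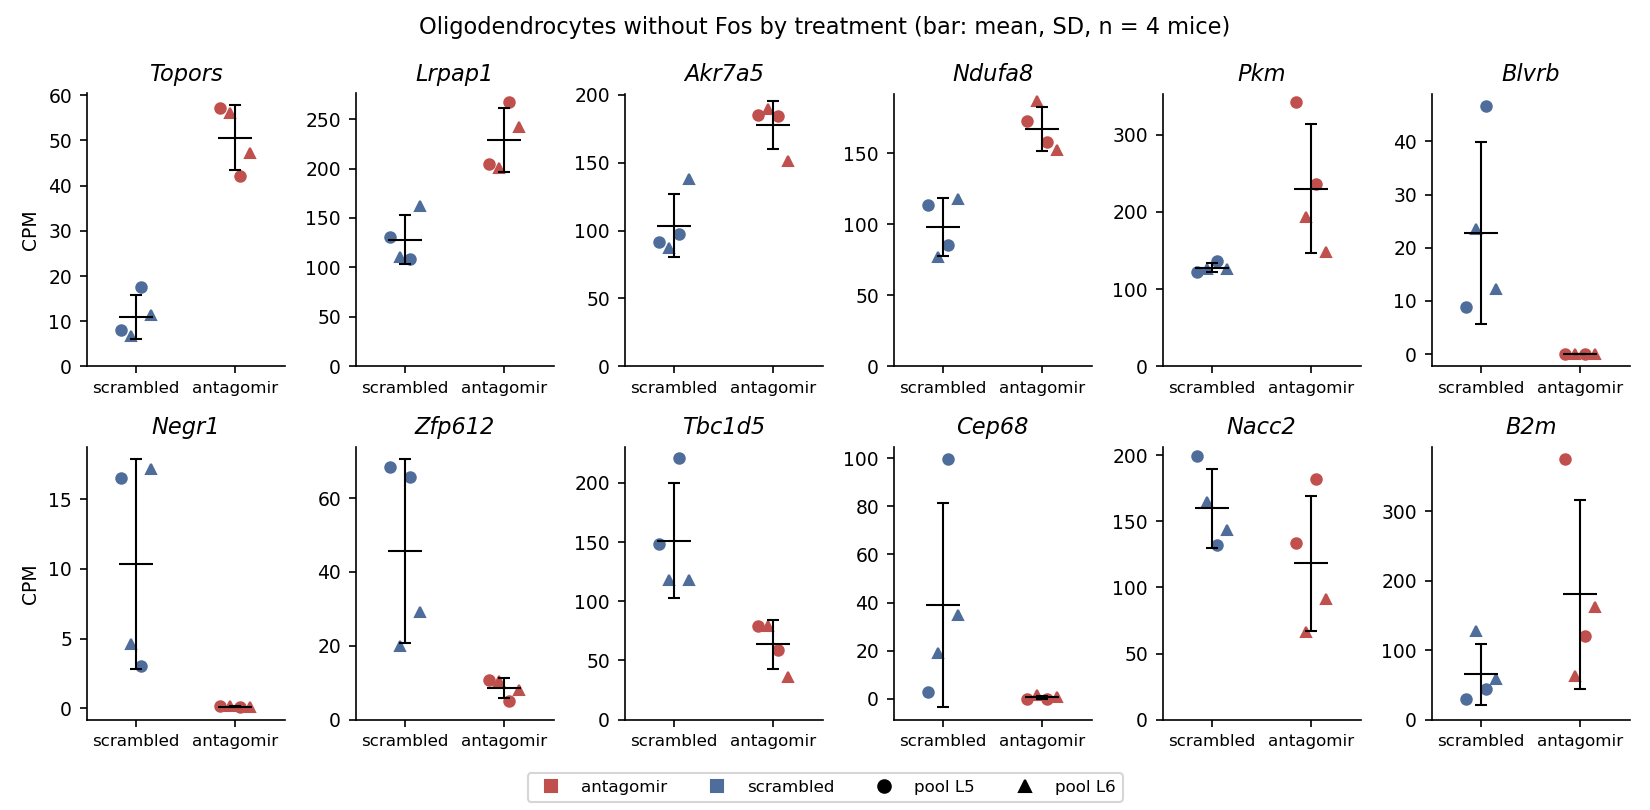
CPM (y axes, linear) in oligodendrocytes without Fos, 1 point per mouse, by treatment, for the 5 genes of smallest unadjusted p in each direction and for Nacc2 and B2m; bars are means and SD of 4 mice. The treatments do not overlap in the first 10 genes, which their small p chose and none of which passed adjustment, and they overlap in Nacc2 and B2m.

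More genes passed between pools than between treatments. With treatment as a covariate, edgeR called 18 of 10012 genes between L6 and L5 (0.18%), 12 higher (0.12%) and 6 lower (0.0599%) in L6. At an unadjusted p under 0.05 the shares were 4.24% higher and 4.49% lower, together 8.74%. Malat1, an abundant nuclear long noncoding RNA at chromosome 19, 5795690 to 5802672 of GRCm38, was at 1139, 1210.2, 1178 and 1519 CPM in the L5 mice 1, 2, 5 and 6 and 5344, 5869, 5105 and 5392 CPM in the L6 mice 3, 4, 7 and 8. The lowest L6 mouse was above the highest L5 mouse by a wide margin (log2 difference 2.02, SE 0.11; edgeR adjusted p = 2.35e-04). Of mitochondrial genes mt-Nd1, mt-Rnr1, mt-Nd2, mt-Rnr2, mt-Cytb and mt-Nd5 were higher. The ribosomal mt-Rnr2 was at 5725, 5712, 6077 and 6282 CPM in the L5 mice 1, 2, 5 and 6 and 21114, 19844, 17715 and 19306 CPM in the L6 mice 3, 4, 7 and 8 (log2 difference 1.62, SE 0.10; edgeR adjusted p = 2.81e-04), and mt-Nd1, a subunit of complex I, differed by 2.08 (SE 0.18; edgeR adjusted p = 0.00441). Reads of mitochondrial genes can also match copies in the nuclear genome, so their exact level is uncertain. Gnb1, Rab10 and E130308A19Rik were higher by 1.47, 1.44 and 1.52 on the log2 scale.

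Of the 6 genes lower in L6, Mag is a panel gene that chose the cells, so its values are a description and no test is read from them: it was at 5525, 5613, 6362 and 5767 CPM in the L5 mice 1, 2, 5 and 6 and 3256, 3627, 3622 and 3099.6 CPM in the L6 mice 3, 4, 7 and 8. Mcam, an adhesion molecule, was at 575, 609, 744 and 536 CPM in the L5 mice 1, 2, 5 and 6 and 254, 247, 179 and 246 CPM in the L6 mice 3, 4, 7 and 8 (log2 difference -1.50, SE 0.18; edgeR adjusted p = 0.0165). Tyro3, a receptor tyrosine kinase, differed by -1.37, Itgb4, an integrin, by -1.32, Serinc5 by -1.31 and Atp9a by -1.09 on the log2 scale. The median over all genes was 0.06, that of the 14 myelin proteins -0.09 and that of the 9 axon contact genes -0.44, with 0 called in either list. Arc stood at 315, 319, 232 and 482 CPM in the L5 mice 1, 2, 5 and 6. In the L6 mice 3, 4, 7 and 8 it stood at 162, 141, 179 and 159 CPM. The pools did not overlap in Arc, but it did not pass (log2 difference -1.14, SE 0.23; edgeR adjusted p = 0.121). The share of all genes tested whose pools did not overlap was not counted.

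Leaving out any 1 of the 8 mice reduced the 18 calls to between 4 and 7. Malat1, mt-Nd1, mt-Rnr1 and mt-Rnr2 passed in all 8 such fits and mt-Cytb in 6, while the other named genes lost the call in at least 7. The same split of mitochondrial counts was seen in the other classes: astrocyte cells held 1.39% to 2.29% in L5 mice and 5.19% to 7.37% in L6 mice, and endothelial cells 0.883% to 1.10% and 3.44% to 5.395%. Malat1 was 4.30 times as high in L6 as in L5 in the cells described, 4.39 times in oligodendrocytes with Fos, 4.001 in astrocyte, 3.80 in endothelial and 5.02 in mural cells. The ratio in oligodendrocytes with Fos includes the L6 mice 4 and 7, which had 1 such cell each. Differences between these ratios were not tested. Each pool held 2 mice of each treatment, so the pool and the treatment can be told apart.

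**Figure D5:**
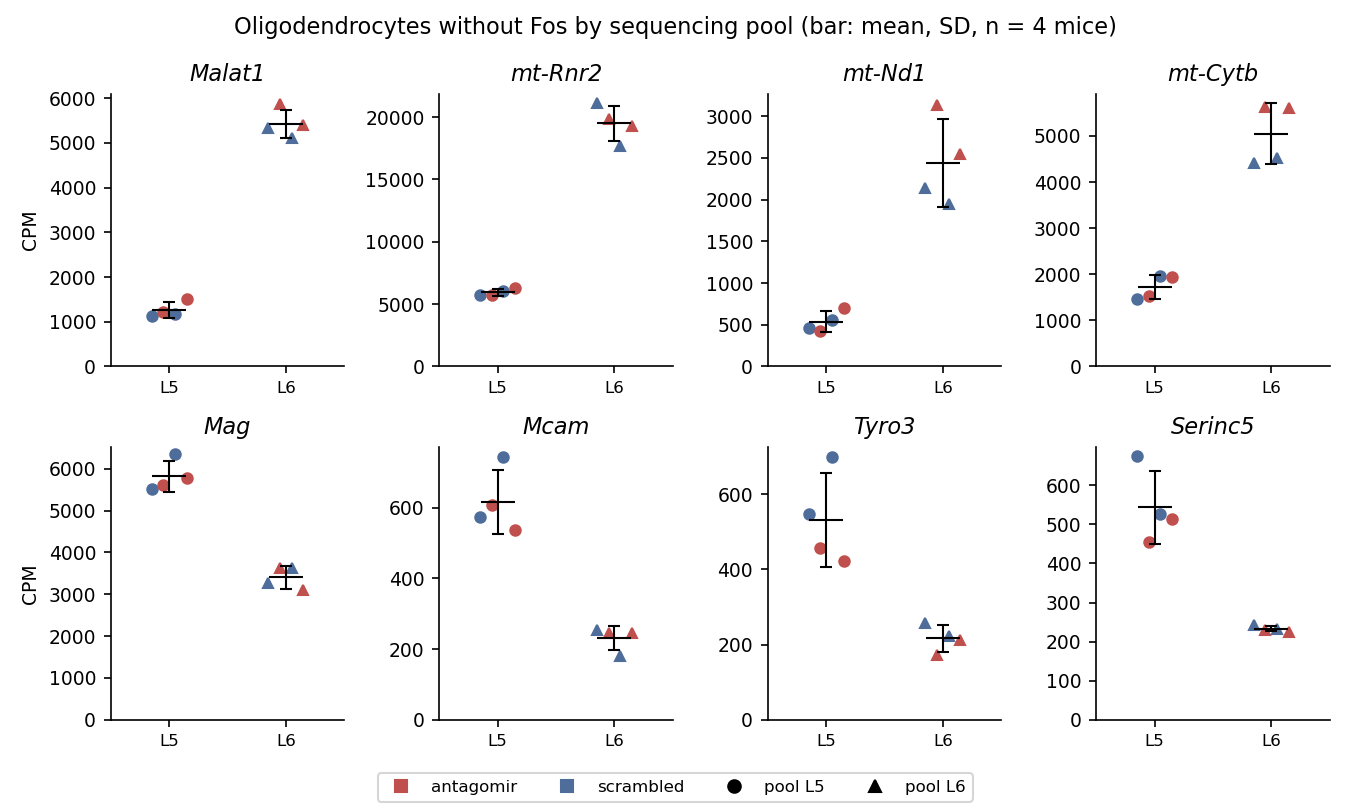
CPM (y axes, linear) in oligodendrocytes without Fos, 1 point per mouse, by pool, coloured by treatment. Bars are means and SD of 4 mice. Malat1 and the 3 mitochondrial genes are higher and Mag, Mcam, Tyro3 and Serinc5 lower in all 4 L6 mice than in any L5 mouse.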

How the data were processed

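Read counts for 31557 gene symbols in 768 wells, not normalized, were deposited. A table of each well's mouse, treatment, sort day, cDNA synthesis date and project label (here the pool) came with them. Build mm10, the aligner STAR 2.5.2, featureCounts 1.5.1 of Subread, FastQC and Seurat 2.3.1 are listed in the submitters' processing notes. No source used here gives the annotation release or strand setting, so antisense partners cannot be told apart. Smart-seq2 has no molecular identifiers: a count is a read, and intervals cover counting error only. The labels' 2 samples per treatment do not say which mice they hold, and the groups came from the deposited well table.

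Counts were summed per mouse over the cells described (at least 5 cells per sum) and tested with edgeR 4.0.16 in R 4.3.3 (filterByExpr, TMM, quasi-likelihood test, Benjamini-Hochberg adjustment over all genes tested); DESeq2 1.42.0 and limma 3.58.1 served as alternatives. CPM are a gene's counts as a share of that sum, scaled to 1000000. The code was tested on simulated data. Shares were compared by exact permutation over mice. Genes were named by rule: with at least 10 counts in at least 10 cells, the 10 largest passing changes a direction, or else the 5 smallest p; the highest of each list; and a fixed few. Gene names outside this rule (Gpr17, Dnajb1, H2-D1, Slc40a1 and others of the lists) were chosen after their values were seen. Some results are not reported here. The members and lists were chosen with earlier results of these data known.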

Additional observations from a re-analysis of the deposited data

Results flagged for a closer look

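Of 71 groups of mice checked for a mouse far from the others, 3 held one; chance flags about 1 in 20 such groups. Akr7a5 was at 151.0 CPM in antagomir mouse 8, against 184.4 to 189.4 CPM in the other antagomir mice. Mcam was at 179.2 CPM in mouse 7 of pool L6, against 245.9 to 253.7 CPM in the other L6 mice. Egr1 was at 20.9 CPM in the cells without Fos of mouse 2, against 0 to 0.455 CPM in the other 5 mice compared.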

How the results depend on the processing

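Oligodendrocytes without Fos gave 0 genes between treatments under every edgeR setting tried (size factors, filter, Fos limit, gene limits, 10 cells per sum, covariates, pool, day), with limma and without each mouse in turn (0 to 0); DESeq2 called 15. Without against with Fos, the 3 calls became 462 with DESeq2, 10 with limma, 0 with at least 10 cells per sum, 1 within pool L5 and 0 within pool L6, and 2 to 3 without each mouse; Egr1 lost its call in 5 of 6 of these. Between pools, the 18 calls became 135 with no filter, 599 with DESeq2, 35 with limma (9 shared), 8 with sort day as a covariate and 4 to 7 without each mouse. The cause was not tested.

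Sort day and pool together hold 1 mouse of each treatment. Same-block mice correlated at 0.0369 to 0.0731 in their deviations. Same-pool mice of different sort days correlated at 0.0271 to 0.0802, so the block paired mice no more closely than the pool did. Mice of different pools correlated at -0.0733 to -0.0264, and the main treatment fit held no term for the pool. With the replicate block 0 genes were called between treatments and 5 between pools (chosen after seeing the data), and the share differences stayed at -0.24 (exact p = 1) and -4.19 percentage points (exact p = 0.25, smallest possible 0.125).

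The treatment difference in the share of oligodendrocytes without Fos turned from -0.24 to 0.251 percentage points with cells thinned to 200000 counts (5 shallower cells left out), to 6.66 within pool L6 and to 0.0714 within sort day 2; without each mouse it ran from -8.38 to 10.7. The share of kept wells ran from -8.93 to 0.982. Of the values for single genes, 167 of 288 between pools and 69 of 85 by Fos stayed on their side of the threshold, and 121 and 15 lost it; between treatments 282 of 286 stayed and 4 passed it. None of these reversed. List medians kept within 1 SD in 288 of 308 values.

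Precision was limited by 4 mice a group, and for genes held by few cells by the number of cells.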
